A study of Arabidopsis thaliana with 18 samples.

Results

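The 200 genes described here were nearly unread in wild-type (WT) pollen and microspores of Arabidopsis thaliana. Among such genes listed for both pollen and microspores, they stood highest in vegetative nuclei of V-Mt pollen. They were chosen by level: of 20582 nuclear gene loci that both deposited gene tables list, 1080 had a mean under 0.5 FPKM (fragments counted on a gene, divided by its length and the library's depth) in each of the 3 WT groups. The 200 of these with the highest V-Mt vegetative mean are the members, and the other 880 serve as a comparison below (the other WT-low loci). V-Mt vegetative levels and the 3 WT levels therefore chose the members and are given as description, with no test. The levels in V-Mt sperm nuclei and V-Mt microspores were not ranked on. Loci listed for pollen alone were left out. With these included and counted as 0 in microspores, 48 members would remain among the 200 highest. The lowest V-Mt VC mean of that set would be 9.06 FPKM.

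RNA was measured in 18 libraries of ecotype Col-0, in 6 groups of 3. Vegetative cell nuclei (V-Mt VC) and sperm cell nuclei (V-Mt SC) were sorted from mature pollen of the line pLat52:REF6-GFP; pHTR10:HTR10-RFP, and late microspores (V-Mt LMS), the stage before the asymmetric pollen division, came from the same line. The corresponding WT VC and WT SC nuclei came from pACTIN11:H2B-GFP; pHTR10:HTR10-RFP plants, and WT LMS from plants with pHTR10:HTR10-RFP alone. Every group thus carried an RFP-tagged sperm histone; in the V-Mt pollen libraries the labels number that histone upwards from HTR10 to HTR15 from one library to the next. The GFP that gated vegetative nuclei was on REF6 in V-Mt and on histone H2B in WT, so marker and genotype cannot be told apart. Neither the plants' age, nor the number of transgenic lines, nor whether replicates were separate plants was stated in the labels; the spread behind each p-value may be technical.

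REF6 is a Jumonji-type histone demethylase that removes methyl groups from lysine 27 of histone H3, the mark that Polycomb complexes place on genes held silent outside their proper tissue. The LAT52 promoter, from tomato, drives expression in the vegetative cell of pollen. REF6 is recruited in part by its own zinc fingers, which recognise the motif CTCTGYTY (Y is C or T). The vegetative cell grows the pollen tube and carries the sperm cells, and its nucleus is known for relaxed chromatin.

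The REF6 gene (AT3G48430) itself stood at 1302.68, 2247.8 and 3000.86 FPKM in V-Mt VC, against 1.1, 0.42 and 0.48 FPKM in WT VC. In microspores it stood at 1160.07, 1175.37 and 506.28 FPKM in V-Mt LMS and at 77.73, 108.15 and 124.86 FPKM in WT LMS. In sperm nuclei it had 28.87, 58.4 and 436.38 FPKM in V-Mt SC, against 24.55, 23.2 and 10.77 FPKM in WT SC. REF6 was therefore already high in V-Mt microspores, and V-Mt SC replicate 3 held several times more of it than the other V-Mt SC libraries. Transgene and endogenous reads cannot be told apart.

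The files hold no read counts. From the lowest values of long transcripts, with an assumed fragment length of 250 bases, the number of fragments was estimated per library. V-Mt VC libraries had 9380000 to 14400000, V-Mt SC 9270000 to 13900000, WT VC 16700000 to 23400000 and WT SC 9310000 to 14800000. Microspore libraries were far shallower, at 2050000 to 3190000 fragments in V-Mt LMS and 1910000 to 2940000 in WT LMS. The ceiling of 0.5 FPKM thus allowed about 3.5 fragments over the 3 WT LMS libraries for a gene of 1 kb effective length, against about 29 over WT VC and 17 over WT SC. A member at 0 in WT microspores is thus unread at that depth. Entries of the pollen table at 1 FPKM or more numbered 18735 to 18932 per library in V-Mt VC, against 8093 to 8386 in the deeper WT VC libraries. In bulk nuclei, fewer cells of a type and less RNA per cell cannot be told apart. The pollen and the microspore tables were normalized apart from each other, and a pollen level placed beside a microspore level carries that limit.

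The promoter sequences of 2 members that hold the REF6 motif in the 250 bases before the annotated start are shown as examples. They are 2 of 7 members with such a match, and ECP63, which stood higher in V-Mt VC, is another. BBX9 lay among ranks 101 to 150, whose V-Mt VC means ran from 2.9 to 4.38 FPKM. Capitals mark a match to CTCTGYTY on either strand, and sequences are RefSeq's, build TAIR10.1, read 5′ to 3′ toward the gene. The window of AT3G21790 lies at chr3:7678543-7678792, minus strand and that of BBX9 at chr4:8711527-8711776, minus strand.
AT3G21790: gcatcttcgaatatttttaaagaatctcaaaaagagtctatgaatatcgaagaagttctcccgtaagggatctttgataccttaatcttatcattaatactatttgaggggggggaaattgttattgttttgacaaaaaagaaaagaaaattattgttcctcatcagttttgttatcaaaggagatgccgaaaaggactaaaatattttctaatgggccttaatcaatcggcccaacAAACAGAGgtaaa
BBX9: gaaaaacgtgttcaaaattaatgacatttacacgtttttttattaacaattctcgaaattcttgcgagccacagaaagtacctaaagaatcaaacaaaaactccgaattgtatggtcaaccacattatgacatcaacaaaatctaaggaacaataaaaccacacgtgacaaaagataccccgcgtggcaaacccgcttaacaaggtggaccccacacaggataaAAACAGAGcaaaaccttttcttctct
In both the capitals read CTCTGTTT on the opposite strand, beginning 13 bases before the start of AT3G21790 and 26 before that of BBX9. AT3G21790 encodes a UDP-glycosyltransferase and BBX9 a B-box zinc finger protein.

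Across the members the motif was no more frequent than elsewhere, and no test was run. In the window from 250 bases before to 50 bases after the start, CTCTGCTC, CTCTGCTT, CTCTGTTC or CTCTGTTT stood on either strand in 10 of 200 members (5.0%), in 7.67% of the other WT-low loci and in 7.76% of all 20504 promoters read. The telobox AAACCCTA, an element linked to Polycomb recruitment in plants, was in 6.0% of members, 7.55% of other WT-low loci and 6.61% of all. The repeat GAGAGAGA, also linked to Polycomb recruitment, was in 22 of 200 members, in 8.58% of other WT-low loci and in 8.75% of all. These are letters in a window, with no measurement of binding.

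The members' levels in V-Mt VC were mostly modest and even between libraries. Their means ran from 2.04 to 88.5 FPKM with a median of 4.39, and their quartiles were 2.89 and 8.79. Of the 200, 188 stood at 1 FPKM or more in each V-Mt VC library, and the median coefficient of variation over the 3 libraries was 23.2%. In 193 members the lowest V-Mt VC library exceeded the highest of the 9 WT libraries, which the rule largely fixes. Of all members, 5 had a V-Mt VC library at 0, and 7 had a coefficient of variation over 100%.

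**Figure D1:**
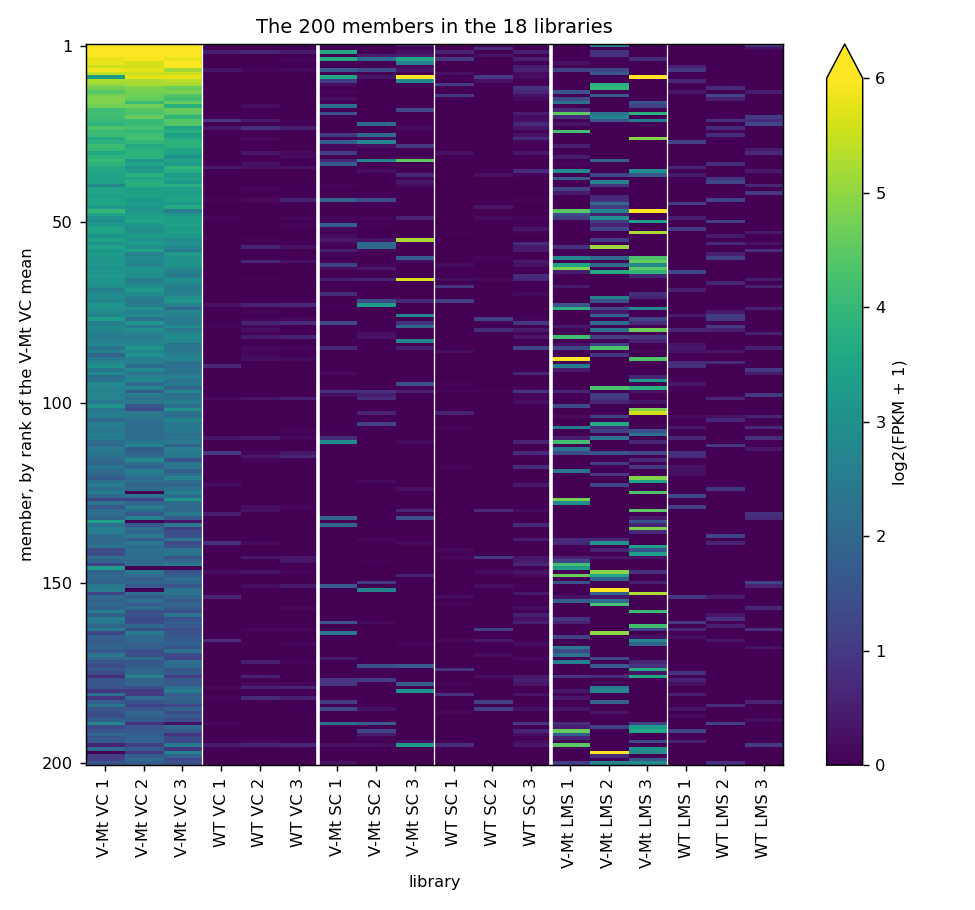
Each row is one of the 200 members, ordered by V-Mt VC mean, and each column a library; colour gives log2(FPKM + 1). The V-Mt VC columns are filled nearly throughout, the WT columns are almost empty, and V-Mt SC and V-Mt LMS show scattered single-library signals.

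In WT the members were close to unread. In WT VC 123 of them were at 0 in all 3 libraries, in WT SC 99 and in WT LMS 98, and 38 were at 0 in all 9. Summed over the 200 members, the libraries held 1859, 1797 and 1760 FPKM in V-Mt VC against 8.1, 11.6 and 9.39 FPKM in WT VC. The sums were 93.0, 61.5 and 253 FPKM in V-Mt SC, against 10.3, 11.2 and 25.9 FPKM in WT SC. They were 454, 495 and 769 FPKM in V-Mt LMS, against 24.6, 28.2 and 22.3 FPKM in WT LMS. The ranges do not overlap within any pair, but WT sums were capped by the choice of members and no test is given. Sums of the other WT-low loci did not overlap either. They were 364 to 413 FPKM in V-Mt VC against 19.5 to 24.7 FPKM in WT VC. In sperm nuclei they were 108 to 190 FPKM in V-Mt SC against 33.2 to 66.9 FPKM in WT SC. In microspores they were 1452 to 1908 FPKM in V-Mt LMS against 111 to 123 FPKM in WT LMS.

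**Figure D2:**
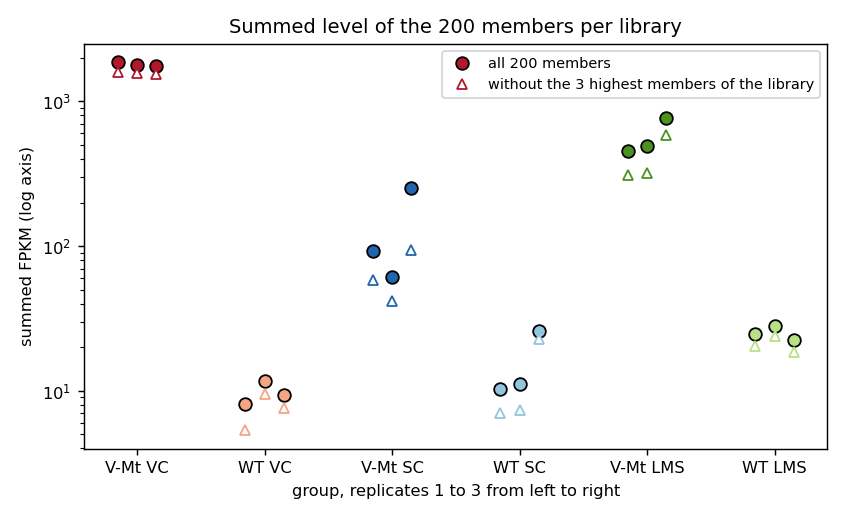
Summed FPKM of the 200 members per library (filled circles, log axis) and without the 3 highest members of that library (open triangles), with V-Mt left of WT in each pair. V-Mt VC holds 1760 to 1859 FPKM, and V-Mt SC replicate 3, at 253 FPKM, drops to 94.7 FPKM without its 3 highest members.

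The 20 highest members were of mixed function, and enzymes led. HCS2 (AT1G37150), a holocarboxylase synthetase of the kind that attaches biotin to carboxylases, had 100.29, 81.23 and 84.11 FPKM in V-Mt VC (mean 88.5 ± 10.3, SD, n = 3) and was at 0 in all WT VC libraries. LAS1 (AT3G45130), lanosterol synthase, had 94.1, 78.69 and 67.62 FPKM in V-Mt VC, against 0, 0 and 0.03 FPKM in WT VC. LAS1 makes a sterol precursor by a route that is minor in plants, and it was listed at 0 in every V-Mt SC and V-Mt LMS library. HCS2 had 0.08, 0 and 0.4 FPKM in V-Mt SC and 0, 4.75 and 0 FPKM in V-Mt LMS, so its microspore signal came from replicate 2 alone. PORA (AT5G54190), the light-dependent protochlorophyllide reductase of etiolated seedlings, had 26.92, 24.75 and 20.11 FPKM in V-Mt VC, while each WT VC library was at 0.

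Other members of this top group were less well described. AT1G66360, a calcium-dependent lipid-binding protein, had 78.06, 75.77 and 63.07 FPKM in V-Mt VC and 0.39, 0.58 and 0.35 FPKM in WT VC. AT5G35050, of unknown function (DUF1985), had 59.98, 62.5 and 67.76 FPKM in V-Mt VC and at most 0.01 FPKM in WT VC. AT1G52950, with an OB fold that binds nucleic acid, had 53.56, 47.65 and 68.78 FPKM in V-Mt VC. The V-Mt VC libraries of these genes lay close together. That was not so for AT1G48720, a copia-like retrotransposon sequence, at 8.65, 52.98 and 54.99 FPKM in V-Mt VC and 0 in every WT VC library. Reads of such repeats can be shared with copies elsewhere in the genome, so its level is uncertain.

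The rest of the top 20 lay between 19.3 and 56.9 FPKM on average in V-Mt VC. They were AT4G19260 and AT2G26720 (a kelch-repeat and a cupredoxin protein), AT5G35926 and AT1G05080 (F-box-like proteins with RNI or FBD domains), AT5G53910 (a RING-type protein), AT4G29200 (related to beta-galactosidase), AT5G47590 (a small heat shock protein), AT1G27565 (uncharacterised), ECP63, AGL19, NTT, AT4G10660 and GTC2. Apart from AT1G48720, the lowest V-Mt VC library of any top 20 member was 13.34 FPKM (AT2G26720).

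**Figure D3:**
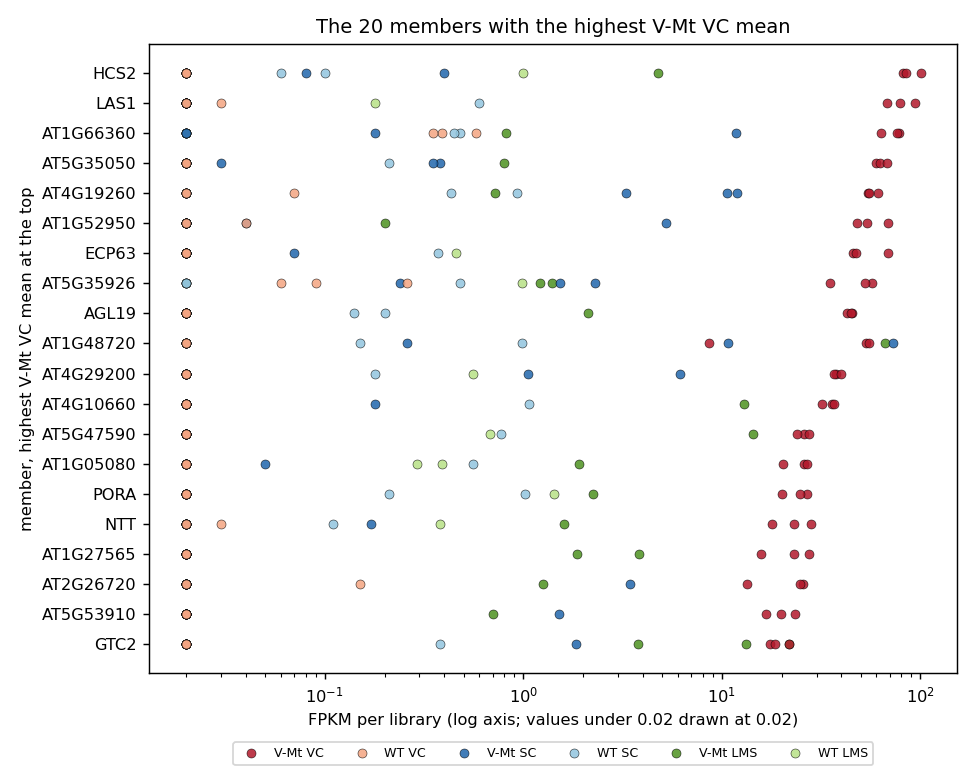
FPKM per library (log axis) of the 20 members with the highest V-Mt VC mean; each point is 1 library and colours give the group. The V-Mt VC points sit at 8.65 FPKM or more, and AT1G48720 is the member of these 20 with a V-Mt SC and a V-Mt LMS library (73.04 and 66.52 FPKM) above all of its V-Mt VC libraries.

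Transcription factors made up 23 members (11.5%), against 10.1% of the other WT-low loci and 5.31% of all loci in both tables. AGL19 (AT4G22950), a MADS-box factor that promotes flowering and a known Polycomb target, had 42.52, 45.03 and 44.86 FPKM in V-Mt VC and 0 in every WT VC and V-Mt SC library. NTT (AT3G57670), a zinc finger factor known from the transmitting tract of the pistil, had 28.02, 23.05 and 17.87 FPKM in V-Mt VC and 0, 0 and 0.03 FPKM in WT VC. AGL6 (AT2G45650), a MADS-box factor of flower development, had 10.02, 10.07 and 9.03 FPKM in V-Mt VC and 0 in every V-Mt SC, WT VC and WT SC library. WUS (AT2G17950), the homeodomain factor that maintains shoot stem cells, was low but even, at 2.74, 3.09 and 2.86 FPKM in V-Mt VC and 0 in every WT VC library. All 3 WUS values lie near the lower end of the members. JAG (AT1G68480), a factor of lateral organ growth, was uneven, at 0.92, 1.11 and 4.87 FPKM in V-Mt VC.

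AGL19, AGL6 and WUS were the members found in a list of 36 developmental transcription factors known as Polycomb targets. Of that list, 28 loci were in both tables and 5 of them were WT-low, the other 2 being CUC3 and WOX3. The summed list ran from 309 to 352 FPKM in V-Mt VC, against 3.77 to 16.6 FPKM in WT VC. A V-Mt VC mean of 1 FPKM or more was found for 20 of its 36 genes, and a WT VC mean of that size for 3. Over all loci in both tables, 72.3% reached this level in V-Mt VC, with 37.1% for WT VC. The count of 20 thus does not set the list apart from other loci. In sperm nuclei it ran from 14.5 to 36.2 FPKM in V-Mt SC and from 9.7 to 92.4 FPKM in WT SC, ranges that overlap. In microspores it ran from 355 to 532 FPKM in V-Mt LMS and from 512 to 1075 FPKM in WT LMS. The other genes of the list in both tables had a mean of 0.5 FPKM or more in at least 1 WT group.

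Genes of protein turnover gave 20 members (10.0%), with 7.5% of the other WT-low loci and 5.63% of all loci in the same class. Most encode F-box proteins, which pick targets for ubiquitin ligases. AT5G35926 had 56.76, 52.85 and 34.91 FPKM in V-Mt VC and 0.26, 0.06 and 0.09 FPKM in WT VC. AT1G05080 had 20.41, 25.94 and 26.76 FPKM in V-Mt VC and 0 in every WT VC library. The class median in V-Mt VC was 4.8 FPKM, near that of all members.

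Late embryogenesis and heat shock proteins, which protect drying or stressed cells, gave 7 members (3.5%), against 1.02% of the other WT-low loci and 0.928% of all loci. ECP63 (AT2G36640), a late embryogenesis protein, had 45.68, 47.39 and 68.44 FPKM in V-Mt VC and 0 in every WT VC and V-Mt LMS library. AT5G47590 had 25.89, 27.35 and 23.95 FPKM in V-Mt VC and 0 in every V-Mt SC library. None of the 7 reached 1 FPKM on average in V-Mt SC, where the highest mean was 0.0633 FPKM. Seed and embryo markers also stood higher in V-Mt VC than in WT VC in sum. Of 14 seed and embryo genes, 10 had a V-Mt VC mean of 1 FPKM or more. Over all loci in both tables, 72.3% reached this level in V-Mt VC, so the count does not set the list apart. The 14 genes summed to 41.2 to 56.5 FPKM in V-Mt VC, against 1.57 to 2.91 FPKM in WT VC, and SESA1 was at 0 in V-Mt VC. Of these 14 genes 2 are in both tables, both at 0 in V-Mt LMS, and none was a member. In V-Mt SC their sum ran from 109 to 188 FPKM, against 85.5 to 171 FPKM in WT SC.

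Cell wall genes gave 15 members (7.5%), against 4.32% of the other WT-low loci and 2.64% of all loci. Proteins that the annotation names pectin lyase-like were 5 of them. AT4G29200 had 37.61, 36.73 and 39.86 FPKM in V-Mt VC and 0 in every WT VC library. AT1G56710, a pectin lyase-like protein, had 11.09, 8.85 and 12.16 FPKM in V-Mt VC and 0 in every WT VC library, and it also appeared in microspores at 6.21, 0 and 6.74 FPKM in V-Mt LMS, against 0, 0 and 0.33 FPKM in WT LMS. In contrast, the sum of 12 vegetative cell and pollen tube markers was 2083 to 2611 FPKM in V-Mt VC, against 8133 to 8731 FPKM in WT VC.

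Protein kinases, phosphatases and receptors gave 15 members (7.5%), against 8.75% of the other WT-low loci and 6.42% of all loci. The highest were AT1G23700, a protein kinase, with 13.65, 15.66 and 19.9 FPKM in V-Mt VC, and BSK10 (AT5G01060), of the family of brassinosteroid signalling kinases, with 11.48, 13.72 and 10.13 FPKM. Transporters gave 11 members (5.5%, against 5.91% of the other WT-low loci and 3.71% of all loci). AT2G04050, a MATE-type efflux protein, had 14.85, 12.94 and 10.51 FPKM in V-Mt VC, and ABCG38 (AT3G30842), an ABC transporter, had 13.83, 10.75 and 8.53 FPKM. Neither class held a member above 20 FPKM on average.

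Metabolic enzymes were the largest named class, with 38 members (19.0%), close to 17.6% of the other WT-low loci and 17.1% of all. Small secreted peptides gave 5 members (2.5%, against 1.48% of the other WT-low loci and 0.52% of all), and dirigent and disease resistance proteins 5 (2.5%, against 1.93% and 0.831%). Uncharacterised proteins gave 11 members (5.5%), against 9.89% of the other WT-low loci and 9.08% of all. Proteases and their inhibitors gave 4 members (2.0%, against 1.59% and 1.9%) and transposable elements 2 (1.0%, against 0.114% and 0.136%). Among the peptides, AT1G34047, defensin-like, had 15.28, 7.91 and 10.26 FPKM in V-Mt VC, while SCRL16 (AT2G06983), related to the self-incompatibility ligand SCR, had 4.73, 0 and 3.92 FPKM. ESB1 (AT2G28670), the dirigent protein that helps form the root's Casparian strip, had 8.15, 5.31 and 7.62 FPKM in V-Mt VC. The remaining 44 members fell in no class. Classes come from product names alone, and no test of enrichment was run.

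**Figure D4:**
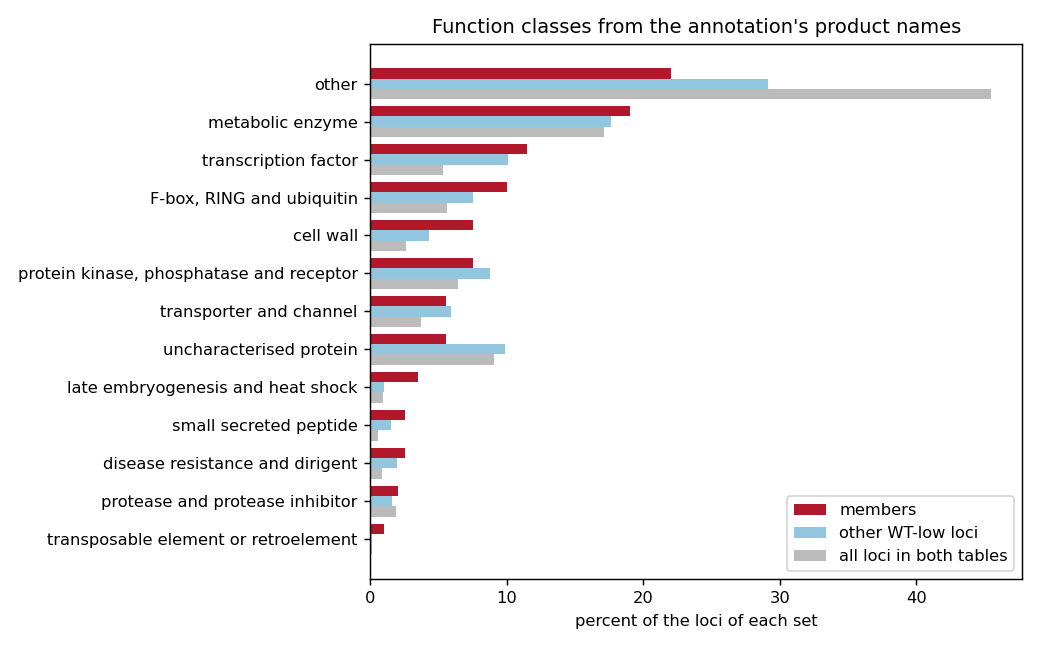
Percent of loci in each function class among the 200 members, the other WT-low loci and all loci in both tables. Transcription factors (11.5%, 10.1% and 5.31%) are about as frequent among members as among the other WT-low loci, and late embryogenesis and heat shock proteins (3.5%, 1.02% and 0.928%) take a larger share of the members.

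The members were spread over all 5 chromosomes, with 32 to 47 on each. Their surroundings were ordinary: a median of 53 annotated genes lay within 100 kb on either side, against 54 for the other WT-low loci and 55 for all loci. Their median transcript length was 1568 bases, against 1657 and 1709 bases. Loci with a single exon were 19.5% of members, 29.2% of the other WT-low loci and 16.1% of all loci.

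A few members lie side by side. The longest run was 3 members within 10.1 kb of chromosome 3 (245416 to 255513, TAIR10.1): AT3G01660, SEOa (AT3G01670) and SEOR1 (AT3G01680). SEOa and SEOR1 encode the filament proteins of phloem sieve elements. SEOR1 had 4.91, 4.23 and 3.36 FPKM in V-Mt VC, against 0, 0.02 and 0 FPKM in WT VC, and SEOa had 1.7, 2.62 and 2.35 FPKM in V-Mt VC and was at 0 in each WT VC library. AT3G01660, a methyltransferase-like gene, had 4.78, 2.91 and 2.93 FPKM in V-Mt VC.

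Another 5 pairs of members lay within 3.73 to 16.1 kb. AT4G10660 and GTC2 (AT4G10670), both related to the histone chaperone subunit SPT16 (CDC68 in yeast), are neighbours on chromosome 4 (6582535 to 6586262). AT4G10660 had 32.08, 35.85 and 36.69 FPKM in V-Mt VC and GTC2 had 17.54, 18.61 and 21.86 FPKM. As close relatives they may share reads. The other pairs were BBX9 with AT4G15260, AT4G35120 with AT4G35160, LAC8 (AT5G01040, a laccase) with BSK10, and AT5G36722 with AT5G36730. AT5G36722 rests on 1 library, at 9.01, 0 and 0 FPKM in V-Mt VC.

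In V-Mt sperm nuclei most members were at or near 0. The median of the members' V-Mt SC means was 0, 103 were at 0 in all 3 libraries and 28 (14.0%) had a mean of 1 FPKM or more. Among the other WT-low loci 4.32% reached that level in V-Mt SC, and 51.0% of all loci did. The members and the other WT-low loci are separated by their V-Mt VC level, and these shares were not tested. The share was 24.0% among the 50 members highest in V-Mt VC, then 14.0%, 4.0% and 14.0% in the next groups of 50.

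Signal in V-Mt SC was patchy. Only 11 members were above 0 in all 3 V-Mt SC libraries, and only AT4G19260 was at 1 FPKM or more in each. In 16 of the 28 members at 1 FPKM or more, a single library held over 90% of the signal. As a share of the mean V-Mt VC sum, the members made up 5.15%, 3.41% and 14.0% in V-Mt SC replicates 1, 2 and 3. For REF6, which the transgene's promoter drives in vegetative cells, the same shares were 1.32%, 2.67% and 20.0%. In WT SC the REF6 shares were 1.12%, 1.06% and 0.493%. The member sum and REF6 were both highest in V-Mt SC replicate 3. The number of members above 0 was lowest there, at 41, against 59 in replicate 1 and 47 in replicate 2. The part of vegetative RNA in this result was not tested. The 12 vegetative cell and pollen tube markers summed to 967 to 1875 FPKM in V-Mt SC, against 1596 to 2191 FPKM in WT SC, with MYB97 at 0 in both. Of the estimated fragment numbers behind V-Mt SC values above 0, 25.9% were under 2.5.

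The members highest in V-Mt SC show this dependence on single libraries. AT1G48720 had 10.73, 0.26 and 73.04 FPKM in V-Mt SC, against 0, 0.99 and 0.15 FPKM in WT SC. AT5G25550, a leucine-rich repeat protein, had 0.37, 0.5 and 48.9 FPKM in V-Mt SC, against 0.19, 0.1 and 0.53 FPKM in WT SC. AT3G09510, related to ribonuclease H, had 0.3, 0.22 and 36.04 FPKM in V-Mt SC and 0 in every WT SC library. In each of them replicate 3 stood far above the others. AT1G48720, AT5G25550 and AT3G09510 supplied 62.5% of the member sum of V-Mt SC replicate 3.

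Of the other members high in V-Mt SC, some were highest in replicate 3 too and some in another library. AT1G34047 had 0.61, 5.54 and 21.98 FPKM in V-Mt SC and 0 in every WT SC library. AT1G66360 had 11.79, 0 and 0.18 FPKM in V-Mt SC, and TPS03 (AT4G16740), a terpene synthase, had 0.04, 8.96 and 0 FPKM. AT3G21790 had 2.41, 5.44 and 0 FPKM, AT2G32885, of the RALF peptide family, 0.17, 0.17 and 9.04 FPKM, and JAG 0, 0 and 7.41 FPKM. AT3G09510, AT5G25550, JAG and AT2G32885 were the 4 members with a higher mean in V-Mt SC than in V-Mt VC, each through replicate 3.

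AT4G19260, with galactose oxidase and kelch repeats, was at 1 FPKM or more in every V-Mt SC library. It had 54.65, 60.79 and 55.18 FPKM in V-Mt VC. In sperm nuclei it had 11.87, 3.3 and 10.64 FPKM in V-Mt SC, against 0.93, 0 and 0.43 FPKM in WT SC, a group that the rule held low. Replicate 2 was the lowest of its V-Mt SC libraries. In V-Mt LMS it was at 0, 0 and 0.72 FPKM.

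It was the 1 member called higher in V-Mt SC than in WT SC, of 192 members that passed the filter for testing, nearly all of them through V-Mt VC. Over all 19733 genes tested, 1.18% were called higher and 3.93% lower in V-Mt SC by limma at an adjusted p of 0.05. That split was 232 higher and 776 lower, against 466 and 461 after median-ratio scaling. Since the rule held WT SC under 0.5 FPKM, nothing is read from this call or from the members' count. The number called at that adjusted p was 3 members without V-Mt SC replicate 1, 4 without replicate 2 and 5 without replicate 3.

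**Figure D5:**
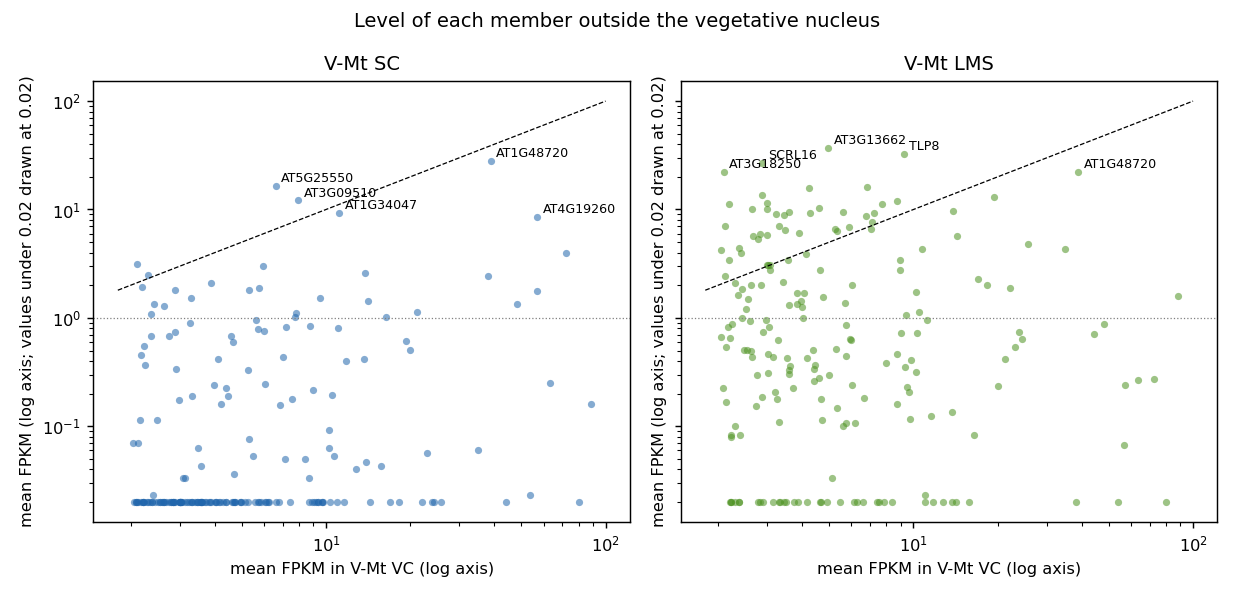
Mean FPKM of each member in V-Mt SC (left) and V-Mt LMS (right) against its mean in V-Mt VC, on log axes; the dashed line marks equal values and the dotted line 1 FPKM. In V-Mt SC 28 members lie at or above 1 FPKM and 4 above the dashed line, and in V-Mt LMS 80 and 41.

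In V-Mt microspores 80 members (40.0%) had a mean of 1 FPKM or more, close to the 36.5% of the other WT-low loci, while 85.3% of all loci reached it. The microspore table lists no gene that is 0 in all 6 of its libraries. The 98 members at 0 in WT LMS therefore had to be above 0 in V-Mt LMS, and 51 of them (52.0%) were at 1 FPKM or more. Among the other WT-low loci at 0 in WT LMS the share was close, at 48.8%. Of the 102 members with some WT LMS signal, 29 (28.4%) reached 1 FPKM in V-Mt LMS, as did 25.5% of the other WT-low loci of that kind. The members' microspore share is thus partly set by how the table was made.

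The V-Mt LMS signal was also scattered. Only 12 members were above 0 in all 3 V-Mt LMS libraries and 7 were at 1 FPKM or more in each, while for 52 of the 80 a single library held over 90% of the signal. AT3G13662, a dirigent-like protein, had 92.24, 0 and 19.31 FPKM in V-Mt LMS and 0 in every WT LMS library. SCRL16 had 0, 80.86 and 0 FPKM in V-Mt LMS, and AT3G18250, a putative membrane lipoprotein, 0, 60.96 and 6.19 FPKM. A gene could thus be among the highest members in one microspore library and unread in the next. Of the V-Mt LMS values above 0, 30.7% rested on an estimated number of fragments under 2.5.

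Other members high in V-Mt LMS followed the same pattern. CEP1 (AT5G50260), a cysteine protease known from tapetal cell death, had 27.21, 0 and 21.11 FPKM in V-Mt LMS and 0 in every WT LMS library. RABA6a (AT1G73640), a small GTPase of membrane traffic, had 0, 2.88 and 37.75 FPKM. EML2 (AT5G06780), with an ENT and a Tudor-like domain, had 0, 0 and 35.8 FPKM. AT2G05910, a LURP-one-like protein, had 0, 0 and 47.09 FPKM, and AT1G48720 had 0, 0 and 66.52 FPKM. In WT LMS all of these were at 0 in every library, except EML2 at 0, 0 and 0.34 FPKM.

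The 7 members at 1 FPKM or more in every V-Mt LMS library were TLP8, GTC2, HCF101, ESB1, AT3G52980, AT3G05260 and AT3G50620; HCF101, AT3G52980 and AT3G05260 were singled out after their values were seen. TLP8 (AT1G16070), a tubby-like protein, had 21.24, 5.44 and 71.66 FPKM in V-Mt LMS and 0 in every WT LMS, WT VC and V-Mt SC library. Its V-Mt VC values were 15.03, 7.73 and 4.93 FPKM. GTC2 had 21.83, 3.8 and 13.25 FPKM in V-Mt LMS and 0 in WT LMS. ESB1 had 10.64, 3.18 and 6.08 FPKM in V-Mt LMS and 0 in WT LMS, and HCF101 (AT3G24430), an assembly factor of photosystem I, had 5.61, 3.15 and 19.19 FPKM in V-Mt LMS, against 0, 1.25 and 0 FPKM in WT LMS. AT3G52980, a zinc finger protein with an RNA recognition motif, had 13.17, 1.5 and 5.8 FPKM in V-Mt LMS, against 0, 0 and 0.47 FPKM in WT LMS. AT3G05260, a Rossmann-fold protein, was lower but even, at 1.66, 2.02 and 1.46 FPKM in V-Mt LMS, against 0.71, 0 and 0 FPKM in WT LMS. In these members the microspore signal was present in every V-Mt library. Marker sums were read in the microspore groups too, without a test. The 16 tapetum and anther wall genes summed to 1833 to 2436 FPKM in V-Mt LMS, against 2421 to 2710 FPKM in WT LMS, ranges that overlap, with 13 of the 16 in the microspore table. The 14 leaf photosynthesis genes summed to 6450 to 10210 FPKM in V-Mt LMS, against 12289 to 13185 FPKM in WT LMS, ranges that do not overlap. The 8 sperm genes summed to 135 to 1007 FPKM in V-Mt LMS, against 37.1 to 268 FPKM in WT LMS, and overlap. Their part in the members' microspore levels was not tested.

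No member was called in V-Mt LMS against WT LMS, where 10 members could be tested. Of all 18002 genes tested there, 0% were called higher and 0% lower by limma at an adjusted p of 0.05, so the comparison made no call for any gene. At an unadjusted p under 0.05, 6 of the 10 members were past the threshold. The rule held WT LMS low, and these 10 passed the filter mainly through V-Mt LMS, so their direction was fixed in advance and nothing is read from that number.

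Seen together, 100 of the 200 members had a mean of 1 FPKM or more in neither V-Mt SC nor V-Mt LMS, 20 in V-Mt SC alone, 72 in V-Mt LMS alone and 8 in both. For the first 100 the name "on in V-Mt vegetative nuclei only" holds at that level, and for the others it does not. The split rests on means that single libraries often carry: by the median of the 3 replicates, chosen after the data were seen, 5.5% of members reached 1 FPKM in V-Mt SC (11 members) and 14.0% in V-Mt LMS (28 members). At 0 in all V-Mt SC and V-Mt LMS libraries were 17 members. In 41 members the listed mean was higher in V-Mt LMS than in V-Mt VC.

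Markers of other cell types moved beside the members. The summed level of 16 tapetum and anther wall genes was 67.0 to 73.1 FPKM in V-Mt VC, against 15.5 to 23.7 FPKM in WT VC, with MS2 at a mean of 27.2 FPKM in V-Mt VC and 0.157 FPKM in WT VC. Other genes of that list were lower in V-Mt VC: DYT1 averaged 0.22 FPKM in V-Mt VC and 4.54 FPKM in WT VC, TDF1 1.2 and 4.02 FPKM, MYB80 0.81 and 2.83 FPKM, and LAP5 0.0767 and 2.19 FPKM. The 14 leaf photosynthesis genes summed to 111 to 125 FPKM in V-Mt VC, against 3.02 to 3.69 FPKM in WT VC. For 12 root and vascular genes the sum was 26.5 to 30.0 FPKM in V-Mt VC, against 2.75 to 5.09 FPKM in WT VC. SHR, PLT1 and WOX5 were at 0 in WT VC, and no gene of the list was at 0 in V-Mt VC. Of the 12, 6 had a V-Mt VC mean of 1 FPKM or more, led by APL (10.5 FPKM) and EXPA7 (9.33 FPKM). That level was reached by 72.3% of all loci in both tables. EXPA7 stood higher in sperm nuclei, at 118 FPKM in V-Mt SC and 105 FPKM in WT SC. The root and vascular genes summed to 113 to 138 FPKM in V-Mt SC, against 74.9 to 190 FPKM in WT SC. For 12 epidermis, trichome and stomata genes the sum was 12.8 to 14.4 FPKM in V-Mt VC, against 0.65 to 2.05 FPKM in WT VC. In V-Mt VC 3 of these 12 had a mean of 1 FPKM or more, a level that 72.3% of all loci in both tables reached there. For 10 genes of the female gametophyte and endosperm the sum was 115 to 126 FPKM, against 8.8 to 13.0 FPKM. FWA held most of it, at a mean of 77.9 FPKM in V-Mt VC and 0.75 FPKM in WT VC. AGL62 went the other way, at 0.73 and 3.18 FPKM. None of these genes was a member, although PLT2, AGL80 and MYB98 were WT-low, and their part in the members' levels was not tested. Sperm markers, 8 genes, summed to 515 to 658 FPKM in V-Mt VC, against 715 to 1227 FPKM in WT VC. DAF1 held most of that sum, at a mean of 356 FPKM in V-Mt VC and 719 FPKM in WT VC. PCR11, GEX2, DAZ1 and DMP9 were also lower in V-Mt VC. The rest were higher there: DUO1 averaged 35.0 FPKM in V-Mt VC and 1.17 FPKM in WT VC, GCS1 15.2 and 1.7 FPKM, and MGH3 82.8 and 46.4 FPKM.

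The cut between members and non-members was shallow. The last members, ranks 198 to 200, were At17.1 (2.08 FPKM in V-Mt VC), MYB82 (2.05 FPKM) and AT3G50620 (2.04 FPKM). Just outside stood AT1G10350 (2.03 FPKM), AT2G19290 and AT5G14510 (1.99 FPKM each). At the WT ceiling, AT1G70390, AT2G35580 and GAMT1 were inside with a highest WT mean of 0.493 FPKM, while AT1G32660 (0.513 FPKM), AT2G07020 and ARF11 (0.523 FPKM each) were outside.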

How the data were processed

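RNA was measured in 12 libraries of sorted pollen nuclei (mRNA) and 6 of late microspores (total RNA), all made with SMART-Seq HT, per the labels' protocols. The deposited values are FPKM per gene made by the authors with RSEM 1.3.1 on TAIR10, per the submitters' processing notes, which also name HISAT2 2.1.0, Bowtie2 (2.3.5 for pollen) and, for pollen, StringTie 1.3.5. The tables hold 28424 entries for pollen and 24292 for microspores, and 2 stray lines were left out. Neither lists an entry at 0 in all of its libraries.

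The 200 members follow the rule given in the report, and the members and gene lists were chosen with earlier results of these data known; function classes were adjusted after product names were seen. Named genes are the 20 highest members, the 10 highest in V-Mt SC, the 10 highest in V-Mt LMS, list members, the 2 highest of each class of at least 5, neighbouring members and those at the cut. A member was counted as present at a mean of 1 FPKM. Depth was estimated from low values, since read counts are not recovered exactly.

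Groups were tested within each table, over all its libraries, with limma 3.58.1 (R 4.3.3, trended variance) on log2(FPKM + 1), for entries that reached 1 FPKM in 3 or more libraries, with Benjamini-Hochberg adjustment at 0.05. Tested on simulated data, it called 172 of 200 genes changed by 4 on the log2 scale in the pollen table and 130 of 200 in the microspore table. False calls numbered 11 and 12. The changed genes had a mean log2(FPKM + 1) above 3, so the recovery does not apply to genes as low as most members in V-Mt SC and V-Mt LMS. Promoters and product names come from RefSeq (TAIR10.1), which annotated all 200 members. Alternatives varied the ceiling, number of members, presence level, pseudocount, filter, scaling, replicate block and each library in turn. Tables and figures were made with Python 3.11.15, pandas 2.3.3 and matplotlib 3.10.9.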

Additional observations from a re-analysis of the deposited data

Results flagged for a closer look

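Loci outside the comparison also stood high in V-Mt VC. Of 4394 loci listed in the pollen table alone, 3201 had WT VC and WT SC means under 0.5 FPKM, and 517 of these reached the level of the last member in V-Mt VC (2.04 FPKM), with a median of 4.86 FPKM. In V-Mt SC 47 of the 517 (9.09%) had a mean of 1 FPKM or more. The highest was AT2G07640, with 1065.78, 1120.98 and 941.86 FPKM in V-Mt VC and 0 in every WT VC library. AT1G12180 followed with 285.03, 333.31 and 283.21 FPKM in V-Mt VC, and AT1G36240 with 210.41, 230.26 and 163.34 FPKM. None of these loci is listed for microspores, where no listed entry is at 0 in all libraries. They were thus unread in V-Mt LMS and WT LMS, or left out there for another reason, which was not tested.

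Of 3356 entries of the pollen table that carry no locus, 2220 were under the same WT ceiling in pollen and 1724 reached the level of the last member in V-Mt VC, up to a mean of 2158 FPKM. What these entries are is not annotated in the sources used here, and they entered no comparison.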

How the results depend on the processing

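The share of members at 1 FPKM or more in V-Mt SC (14.0%) depended on the settings. It was 9.0% with a WT ceiling of 0.25 FPKM, 22.0% with a ceiling of 1 FPKM and 6.5% when the highest WT replicate had to be under 0.5 FPKM. It was 21.5% when present meant 0.5 FPKM, 6.0% when it meant 2 FPKM and 5.5% by the median of the 3 replicates, an alternative added after the data were seen. Leaving out 1 library gave 12 to 17.5%. The V-Mt LMS share (40.0%) was 14.0% by the median of the 3 replicates, also added later, and 32.0 to 44.5% without 1 library. The cause was not tested.

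The count of members called higher in V-Mt SC was 1, and 2 with a pseudocount of 0.1. Without 1 library it was 1 to 5, with 3, 4 and 5 without V-Mt SC replicates 1, 2 and 3, while calls over all genes ran from 104 to 617 higher. Without a V-Mt VC library 52 or 53 members could be tested, because most passed the filter through V-Mt VC alone. The split of calls over all genes was 232 higher and 776 lower; median-ratio scaling turned it to 466 higher and 461 lower, and quantile normalization to 203 higher and 227 lower; the median log2 change of all genes was -0.191 as deposited. In V-Mt LMS the count was 0 in every alternative. As the rule held WT low in both comparisons, these counts say nothing of stability.

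Replicates share numbers, but same-numbered libraries did not deviate together (correlations of -0.0439, -0.0648 and -0.201 in sperm nuclei, and -0.132, -0.104 and 0.0348 in microspores). With a replicate block the count stayed at 1 for sperm nuclei and 0 for microspores, and calls over all genes in sperm nuclei were 124 higher and 484 lower. Microspore depth limits what silence in WT means: 67.2% of member values above 0 in WT LMS rested on under 2.5 estimated fragments.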
